A study of Mus musculus with 23 samples.

Results

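The 38 Hox genes described here are homeobox genes of the mouse Hoxa, Hoxb, Hoxc and Hoxd clusters, taken by gene symbol from the gene annotation of an expression array. Of these, 36 were measured by a transcript cluster (the probes that read 1 transcript) of a single gene, among 22180 genes in all: 9 in the Hoxa, 10 in the Hoxb, 9 in the Hoxc and 8 in the Hoxd cluster. Hoxa11 and Hoxd4 were read only by transcript clusters annotated to several genes, and no value is given for them.

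Hox genes encode transcription factors that tell a cell where it lies along the body axis. They sit in the clusters in the order in which they act from head to tail, and copies at the same place in different clusters form a paralog group, numbered from the head end. Cells derived from the neural crest and the mesoderm keep the Hox code of the level at which they arose into adult life, and the proteins bind DNA together with TALE cofactors of the Pbx and Meis families.

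Cells were obtained by sorting, as p75-positive Schwann cells (SCs) and macrophages positive for both F4/80 and CD11b. They came from 3 tissues: neurofibroma of 7-month-old Nf1fl/fl;DhhCre mice (3 SC and 4 macrophage arrays), dorsal root ganglia with nerve roots, brachial plexus and sciatic nerve of 1-month-old Nf1fl/fl;DhhCre mice, called mutant nerve (3 and 5 arrays), and the same tissue of 1-month-old Nf1fl/fl mice without Cre, called wild-type nerve (3 and 3 arrays). The labels give the SCs of neurofibroma and mutant nerve as Nf1-/-, all macrophages as Nf1+/+, and the strain as mixed C57BL/6 and BALB/c, while the study's methods name C57Bl/6. DhhCre deletes Nf1 in the SC lineage, so macrophages of the mutant mice keep the gene, and the sorted p75-positive cells are a mixture with and without the deletion. The labels call the 1-month-old mutant tissue neurofibroma as well, although by the study's account tumours have not formed by then. Tissue of several mice was combined for a sort at 1 month, and each sort held ganglia and nerves of many segments, so a value is a mean over positions along the body axis.

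Promoters, from 250 bases before to 50 bases after the start of the transcript, were held for 22 of the 38 genes in the RefSeq table (build GRCm38.p6), Hoxb6 and Hoxc6 not among them. The promoters of Hoxd8 (chr2:74704365-74704664, + strand) and Hoxd10 (chr2:74691641-74691940, + strand), near neighbours in the Hoxd cluster that were both called higher in SCs than in macrophages of mutant nerve, are shown with the CCAAT box in capitals (CCAAT, read on either strand).
Hoxd8: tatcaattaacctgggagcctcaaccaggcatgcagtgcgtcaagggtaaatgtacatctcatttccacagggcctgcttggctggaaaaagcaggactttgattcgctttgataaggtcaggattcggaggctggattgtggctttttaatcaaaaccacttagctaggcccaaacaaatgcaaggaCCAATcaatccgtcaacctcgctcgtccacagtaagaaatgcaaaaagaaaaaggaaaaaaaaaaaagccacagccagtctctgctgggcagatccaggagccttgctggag
Hoxd10: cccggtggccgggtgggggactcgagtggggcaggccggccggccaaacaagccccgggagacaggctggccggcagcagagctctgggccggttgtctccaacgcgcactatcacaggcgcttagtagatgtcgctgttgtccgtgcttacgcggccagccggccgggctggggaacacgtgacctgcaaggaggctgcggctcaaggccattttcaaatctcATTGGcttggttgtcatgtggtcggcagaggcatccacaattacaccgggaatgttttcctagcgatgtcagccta
Each held 1 CCAAT box, and at least 1 was found in 15 of the 24 promoters held for these genes and in 37.4% of the 32851 promoters of 300 bases in the table. Neither held the Pbx-Hox site TGATNNAT (in 4 of the 24 and in 8.85% of all), the Meis site TGACAG (in 2 of the 24 and in 19.2% of all), the homeodomain site TAATTA (in 2 of the 24 and in 5.29% of all), the TATA box TATAAA (in 4 of the 24 and in 13.6% of all) or the GC box GGGCGG (in 10 of the 24 and in 35.7% of all). A match is a run of letters and not a bound site. The clusters also carry microRNA genes, and 3 of those whose transcripts the array reads are shown here. Such a reading says nothing of the mature product. The mature sequences of these microRNA genes, with the seed (bases 2 to 8) in capitals, have different seeds.
miR-10b-5p, from Mir10b in the Hoxd cluster on chromosome 2: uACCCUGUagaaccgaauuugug
miR-196a-5p, from Mir196a-1 in the Hoxb cluster on chromosome 11 and Mir196a-2 in the Hoxc cluster on chromosome 15: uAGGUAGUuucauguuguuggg

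Values are log2 intensities as deposited. A value is compared with that of the same gene on other arrays, and within an array only with the array's median. Most Hox genes lay in the lower part of each array: above the array's median on every array of a group were 6 of 36 in neurofibroma SCs, 10 in mutant SCs and 11 in wild-type SCs, against 4 in each of the 3 macrophage groups. Hoxb5 and Hoxd8 lay above the median on every array of all 6 groups. Array medians fell on 2 levels, 2.92 to 3.04 and 3.74 to 3.88, with a gap of 0.70 between the nearest arrays. Every array of 7-month-old mice lay on the lower and every array of 1-month-old mice on the higher level, with a universal batch control RNA on 1 array of each. These levels are called array sets here. They were read from the values and are not the batches of the labels, where all 7 sorted arrays of 7-month-old mice and 7 of the 14 of 1-month-old mice carry batch 2. With sets so defined, age and array set cannot be told apart except through that control pair. In the 7-month set 16 of the 36 Hox genes, and 23.4% of all genes, had exactly the same value on at least 3 of 8 arrays, against 0 of 36 and 0.018% on the 15 arrays of the 1-month set.

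Of the genes behind the sort, Adgre1, which encodes F4/80, was at -6.45 on the log2 scale, SC minus macrophage, and so far lower in SCs, Itgam, which encodes CD11b, was at -4.77, and Ngfr, which encodes p75, was 1.88-fold higher (limma, adjusted p = 1.61e-04). Of the SC markers measured 14 of 15 were called higher in SCs, where 7.17% of all genes were. Fibroblast markers were called higher in SCs as well (13 of 14), and their mean log2 level was 6.36 to 6.57 in SCs and 3.68 to 3.87 in macrophages of neurofibroma, 7.61 to 8.36 in SCs and 4.57 to 6.54 in macrophages of mutant nerve, and 7.96 to 8.12 in SCs and 5.93 to 6.46 in macrophages of wild-type nerve. The endothelial markers were called higher in SCs in 8 of 8 cases, and the neuron markers in 3 of 10. The mean log2 level of the endothelial markers was 6.16 to 7.77 in SCs and 3.30 to 3.43 in macrophages of neurofibroma. In mutant nerve it was 5.96 to 7.28 in SCs and 3.63 to 5.55 in macrophages, and in wild-type nerve 6.71 to 7.44 in SCs and 4.37 to 5.53 in macrophages. The mean log2 level of the neuron markers was 3.06 to 3.46 in SCs and 2.37 to 2.50 in macrophages of neurofibroma, 4.19 to 5.36 in SCs and 3.30 to 4.33 in macrophages of mutant nerve, and 4.26 to 5.004 in SCs and 3.60 to 4.14 in macrophages of wild-type nerve. Lymphocyte markers averaged 2.42 to 2.97 in SCs and 2.46 to 2.54 in macrophages of neurofibroma. In mutant nerve they averaged 3.24 to 4.65 in SCs, highest on SC array 9, and 3.12 to 3.32 in macrophages. In wild-type nerve they averaged 3.29 to 4.06 in SCs and 3.43 to 3.64 in macrophages. The study describes its sorted p75-positive cells as negative for EGFR, a receptor that fibroblasts carry. Egfr mRNA, looked up after the other values were seen, was above the array median on every SC array and on every macrophage array. It was at 6.63 to 7.18 in SCs and 3.33 to 4.17 in macrophages of neurofibroma. In mutant nerve it was at 7.07 to 7.86 in SCs and 4.5 to 5.76 in macrophages. In wild-type nerve it was at 7.54 to 7.77 in SCs and 5.39 to 6.12 in macrophages. Egfr was called higher in SCs (2.40 over the 3 tissues, limma, adjusted p = 7.87e-11). An mRNA level is not a measure of the receptor protein. Fibroblasts of the trunk and limbs and neurons of the ganglia also carry a Hox code. The part of these cells, and of endothelial cells, in the Hox values below was not tested. In such bulk samples fewer cells of a type and less RNA per cell cannot be told apart. Genes of the seminal vesicle, which is not a tissue of this study, averaged above 4 on the log2 scale on 5 arrays (wild-type SC arrays 2 and 3, wild-type macrophage arrays 5 and 6 and neurofibroma SC array 7m_4992), against at most 2.60 on the others. Arrays are named by the number in their labels.

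Comparing SCs with macrophages asks which positional code either cell type carried. Averaged over the 3 tissues, Hoxc6 was 2.42-fold and Hoxb6 2.02-fold higher in SCs, and these 2 of 36 genes were called (adjusted p under 0.05 over all 22180 genes and more than 2-fold; limma with the array set as a term). The share of called genes among the Hox genes was not above that of the whole array, of which 12.4% was called, 7.17% as higher and 5.25% as lower. With no minimum fold, 15 of 36 Hox genes were higher and 1 was lower at an adjusted p under 0.05, where 20.6% of all genes were higher and 19.6% lower. The median difference, SC minus macrophage, was 0.22 on the log2 scale over the Hox genes and -0.04 over all genes, and 28 of 36 were above 0. The 20 Hox genes that did not pass the test at any fold lay between -0.19 (Hoxc12) and 0.28 (Hoxa9). The p-values measure only the spread between these arrays, whose number limits the precision.

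**Figure D1:**
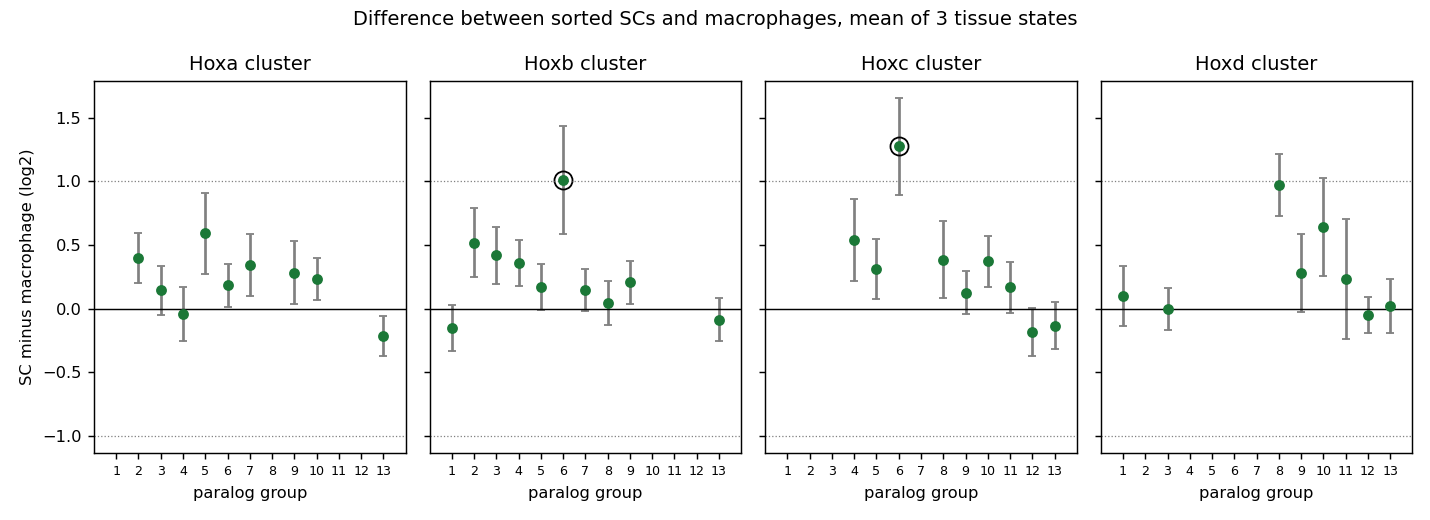
Difference between SCs and macrophages (log2, SC minus macrophage, mean of the 3 tissues) for the 36 measured Hox genes, in 1 panel per cluster by paralog group; points are fitted means, bars 95% confidence intervals, dotted lines a 2-fold difference, and circles the called genes. Hoxb6 and Hoxc6 lie above the 2-fold line, Hoxd8 lies just below it, and genes of paralog groups 12 and 13 lie near or below 0.

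Hoxc6, which marks the brachial and thoracic level of the trunk, had the largest difference of the Hoxc cluster. Its log2 values were 2.77, 3.85 and 3.91 in SCs and 2.39, 2.67, 2.79 and 2.88 in macrophages of neurofibroma. In mutant nerve they were 4.30, 5.02 and 4.61 in SCs, against 3.63, 3.14, 3.53, 3.14 and 4.00 in macrophages. In wild-type nerve they were 4.67, 5.02 and 6.17 in SCs, against 3.21, 3.48 and 3.61 in macrophages. SC and macrophage arrays did not overlap in either nerve, while in neurofibroma SC array s4481 lay among the macrophages. The mean difference was 1.28 (SE 0.18, adjusted p = 6.37e-06).

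Hoxb6, its paralog in the Hoxb cluster and likewise a gene of the thoracic level, was more uneven. In neurofibroma it had log2 values of 3.62, 2.59 and 3.99 in SCs, against 2.59, 2.48, 2.41 and 2.51 in macrophages. In mutant nerve it had 3.93, 4.23 and 4.82 in SCs, against 3.26, 3.96, 3.07, 2.91 and 3.40 in macrophages. In wild-type nerve it had 4.11, 5.46 and 3.79 in SCs, against 3.07, 3.35 and 3.55 in macrophages. SC array 7m_4486 of neurofibroma was level with the highest macrophage array, and a macrophage array of mutant nerve was level with the lowest SC array. The mean difference was 1.01 (SE 0.20, adjusted p = 3.29e-04), close to the 2-fold limit, and leaving out any of 7 single arrays brought it below that limit: SC arrays s4481 (0.97) and 7m_4992 (0.91) of neurofibroma, SC array 10 (0.93) and macrophage arrays 13 (0.99) and 14 (0.98) of mutant nerve, and SC array 2 (0.84) and macrophage array 4 (0.97) of wild-type nerve. Hoxa6, the remaining gene of paralog group 6, differed by 0.18 (SE 0.08, adjusted p = 0.0780).

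Hoxd8, which lies between the anterior and the posterior genes of the Hoxd cluster, did not overlap in any tissue. In neurofibroma its log2 values were 4.74, 4.04 and 4.86 in SCs, against 3.48, 3.01, 3.23 and 3.35 in macrophages. In mutant nerve they were 5.86, 5.65 and 6.00 in SCs, against 4.66, 4.68, 4.35, 5.04 and 5.19 in macrophages. In wild-type nerve they were 5.99, 5.57 and 5.84 in SCs, against 5.25, 5.23 and 5.16 in macrophages. Every SC array lay above every macrophage array of its tissue. The mean difference of 0.97 (SE 0.12, adjusted p = 6.47e-07) was 1.96-fold and so just under the limit for a call.

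Hoxd10, which acts in the lumbar spinal cord and the hindlimb, had log2 values of 3.94, 3.69 and 3.68 in SCs and 3.53, 3.51, 3.14 and 3.51 in macrophages of neurofibroma. In mutant nerve it had 4.49, 5.18 and 6.60 in SCs, against 3.96, 4.18, 4.15, 4.39 and 4.59 in macrophages. In wild-type nerve it had 4.62, 4.33 and 4.78 in SCs, against 3.67, 4.51 and 4.32 in macrophages. SC array 10 of mutant nerve stood far above all others, and the groups overlapped in both nerves. The mean difference was 0.64 (SE 0.19, adjusted p = 0.00818). Hoxd9, its neighbour, was at 0.28 (SE 0.15, adjusted p = 0.144), and it had log2 values of 1.89, 2.25 and 2.05 in SCs and 1.79, 1.93, 1.77 and 2.10 in macrophages of neurofibroma. In mutant nerve it had 2.34, 3.12 and 3.98 in SCs, against 2.93, 2.62, 2.67, 3.23 and 3.06 in macrophages. In wild-type nerve it had 3.35, 2.93 and 3.35 in SCs, against 2.68, 2.99 and 2.68 in macrophages. Its groups overlapped in all 3 tissues.

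**Figure D2:**
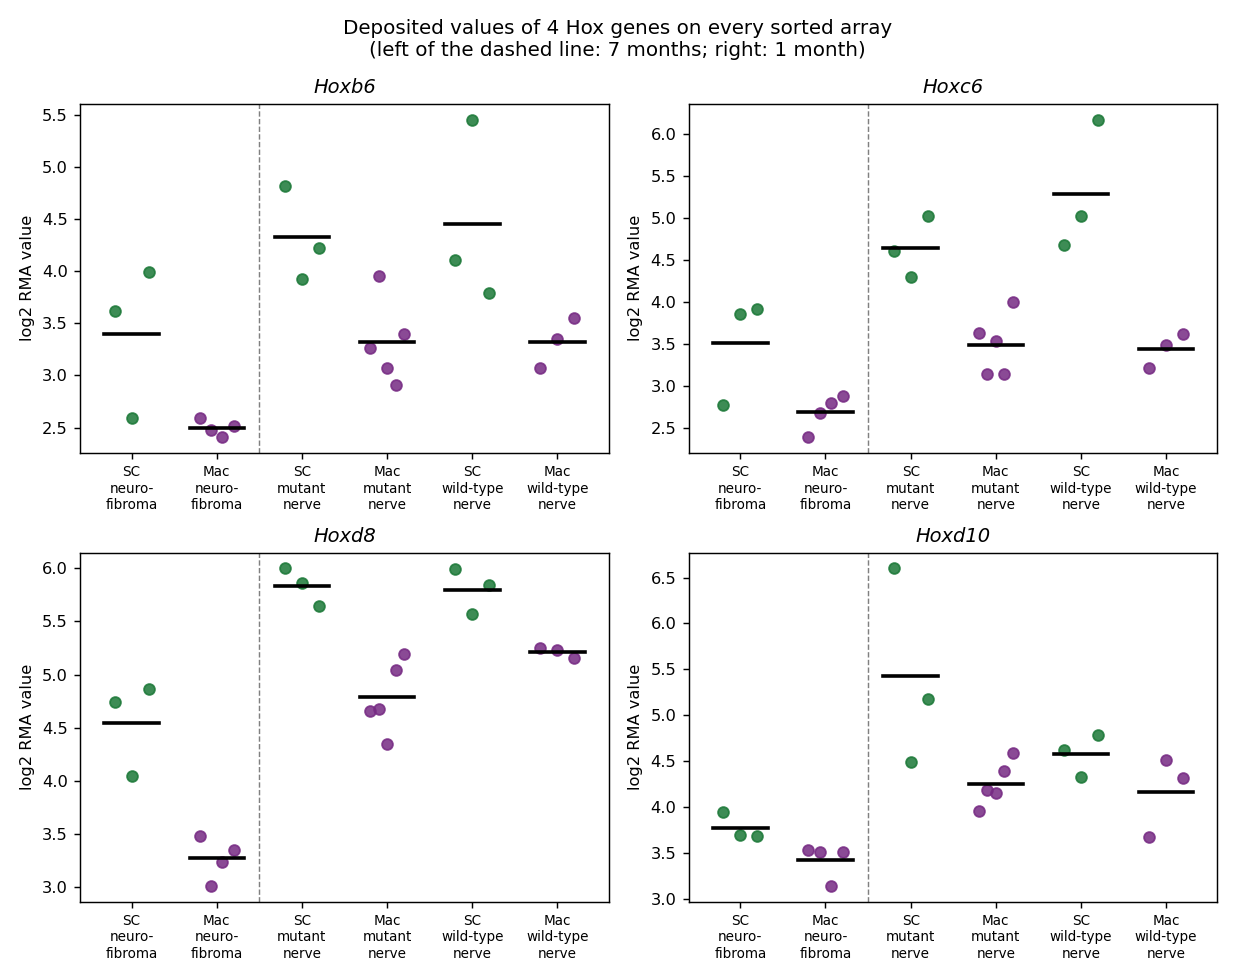
Deposited log2 values of Hoxb6, Hoxc6, Hoxd8 and Hoxd10 on each of the 21 sorted arrays, SCs in green beside macrophages (Mac) in purple of the same tissue; points are arrays and black lines group means. Neurofibroma (left of the dashed line) lies in an array set of its own. Hoxd8 separates SCs from macrophages in all 3 tissues, and 1 mutant SC array reaches 6.60 for Hoxd10.

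In the Hoxa cluster the largest difference was that of Hoxa5, which patterns the neck and upper chest. Its log2 values in wild-type nerve were 3.63, 3.70 and 4.24 in SCs, against 2.62, 3.11 and 3.19 in macrophages. In mutant nerve they were 3.69, 4.36 and 2.74 in SCs, against 2.92, 2.99, 2.94, 3.43 and 3.02 in macrophages. In neurofibroma they were 2.36, 2.37 and 2.82 in SCs, against 2.15, 2.24, 2.00 and 2.20 in macrophages. The groups did not overlap in neurofibroma and wild-type nerve, but SC array 10 of mutant nerve lay below all 5 macrophage arrays. The mean difference was 0.59 (SE 0.15, adjusted p = 0.00338). Hoxa2, a gene of the hindbrain and of its neural crest, differed by 0.40 (SE 0.09, adjusted p = 0.00187). In wild-type nerve it had 3.42, 3.39 and 3.65 in SCs, against 2.93, 2.58 and 2.87 in macrophages, with no overlap. In mutant nerve it had 3.03, 3.36 and 3.91 in SCs, against 3.24, 2.92, 2.93, 2.93 and 2.81 in macrophages. In neurofibroma it had 2.41, 2.39 and 2.45 in SCs, against 2.22, 2.50, 2.43 and 2.43 in macrophages, so that the arrays overlapped in both tissues of Nf1fl/fl;DhhCre mice. Hoxa7, a thoracic gene, differed by 0.34 (SE 0.12, adjusted p = 0.0247). It had 2.63, 3.00 and 2.18 in SCs and 2.50, 2.35, 2.81 and 2.63 in macrophages of neurofibroma. The values in mutant nerve were 4.53, 4.26 and 3.88 in SCs, against 3.81, 3.69, 3.57, 3.93 and 3.72 in macrophages. The values in wild-type nerve were 4.46, 4.42 and 3.68 in SCs, against 3.62, 3.73 and 3.68 in macrophages. Its arrays overlapped in all 3 tissues. Hoxa10 also passed the test with no minimum fold (0.24, adjusted p = 0.0212).

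In the Hoxb and Hoxc clusters the genes next in size were Hoxb2 and Hoxb3, hindbrain and neck genes, and Hoxc4 and Hoxc8, of the neck and the lower chest. Hoxb2 differed by 0.52 (SE 0.13, adjusted p = 0.00294), and in neurofibroma its 3.09, 2.98 and 3.02 in SCs all lay above the 2.89, 2.77, 2.80 and 2.52 in macrophages. The values in mutant nerve were 4.25, 4.25 and 3.66 in SCs, against 3.91, 3.50, 3.13, 3.37 and 3.58 in macrophages. The values in wild-type nerve were 4.14, 5.02 and 3.81 in SCs, against 3.55, 3.78 and 3.50 in macrophages. Only the arrays of mutant nerve overlapped for Hoxb2. Hoxb3 differed by 0.42 (SE 0.11, adjusted p = 0.00342), and did not overlap in mutant nerve, where SCs had 3.93, 4.05 and 3.51 and macrophages 3.46, 3.20, 3.44, 3.16 and 3.37. In neurofibroma it had 2.97, 3.01 and 2.68 in SCs, against 2.16, 2.57, 2.44 and 2.71 in macrophages. The values in wild-type nerve were 4.13, 3.49 and 4.33 in SCs, against 3.85, 3.51 and 3.58 in macrophages. In both of these tissues 1 SC array lay at or below macrophage arrays. Hoxc4 differed by 0.54 (SE 0.15, adjusted p = 0.00781), but in neurofibroma this came from SC array 7m_4992 with 4.06, beside 2.85 and 2.52 on the other SC arrays and 2.63, 2.63, 2.51 and 2.40 in macrophages. The values in mutant nerve were 3.07, 3.59 and 3.22 in SCs, against 2.41, 2.49, 2.53, 3.22 and 2.67 in macrophages. The values in wild-type nerve were 2.95, 3.45 and 3.40 in SCs, against 2.75, 3.06 and 2.85 in macrophages. In both nerves a single macrophage array reached into the range of the SCs. Hoxc8 differed by 0.39 (SE 0.14, adjusted p = 0.0379), with 2.71, 2.59 and 2.75 in SCs and 2.41, 2.31, 2.41 and 2.39 in macrophages of neurofibroma. The values in mutant nerve were 3.66, 2.95 and 2.74 in SCs, against 2.40, 3.10, 2.78, 2.88 and 2.65 in macrophages. Its values in wild-type nerve were 3.12, 3.63 and 3.23 in SCs, against 2.12, 3.47 and 2.86 in macrophages. Its arrays overlapped in both nerves. Hoxb4 (0.36, adjusted p = 0.00200), Hoxc10 (0.37, adjusted p = 0.00327) and Hoxc5 (0.31, adjusted p = 0.0308) also passed the test with no minimum fold. Hoxb5 was read by 2 transcript clusters, of which the brighter gave 0.17 (adjusted p = 0.124) and the other 0.41 (adjusted p = 0.00458). For neurofibroma minus mutant nerve they also differed, with -0.89 (adjusted p = 0.324) and 0.07 (adjusted p = 0.990) in SCs and -0.80 (adjusted p = 0.417) and 0.12 (adjusted p = 0.987) in macrophages, so that no direction is given for Hoxb5 between ages.

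By position along the clusters, the differences were larger for paralog groups 4 to 8 than at either end. Of these 14 central genes 13 were above 0, 9 were higher at an adjusted p under 0.05, and their median difference was 0.35. At that threshold 20.6% of all genes were higher and 19.6% lower. Of the 7 anterior genes (paralog groups 1 to 3) 5 were above 0 and 3 were higher at that threshold, with a median of 0.14. Of the 15 posterior genes (paralog groups 9 to 13) 10 were above 0, 3 were higher, a share near that of all genes, and 1 was lower, with a median of 0.17. The lower one was Hoxa13, a gene of the tail end, the digits and the urogenital tract, at -0.22 (SE 0.08, adjusted p = 0.0245). Within the posterior class all 3 genes of paralog group 10 were higher at that threshold, while 5 of the 6 genes of groups 12 and 13 lay below 0 and Hoxd13 lay at 0.02. Of these 6 genes Hoxa13, Hoxb13, Hoxc12 and Hoxd12 were above the array median on 0 of 21 arrays, Hoxd13 on 1 and Hoxc13 on 2. Central genes ranged from 0 arrays (Hoxb8, Hoxc5 and Hoxc8) to 21 (Hoxb5 and Hoxd8). Whether low levels limited the differences at the ends of the clusters was not tested. By cluster the medians were closer, 0.24 in Hoxa, 0.19 in Hoxb, 0.31 in Hoxc and 0.17 in Hoxd. No test compared the classes or the clusters, and the difference of 21 of the 36 genes was above 0 in all 3 tissues and that of 4 (Hoxa13, Hoxb1, Hoxc12 and Hoxc13) in none.

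The same comparison within each tissue uses arrays of 1 array set only. In neurofibroma Hoxd8 alone was called, 2.42-fold higher in SCs (1.28, SE 0.20, adjusted p = 4.29e-05), where 6.46% of all genes were called higher and 5.88% lower. The median over the Hox genes was 0.06, against -0.02 over all genes. Hoxb6 (0.90, adjusted p = 0.0730) and Hoxc6 (0.82, adjusted p = 0.0682) did not pass the test, and each had a single SC array at the macrophage level, 7m_4486 for Hoxb6 and s4481 for Hoxc6. Without that array each passed it, but leaving out an array for its low value raises the difference by construction. No conclusion is drawn from that pass. In 5 genes (Hoxa5, Hoxb2, Hoxc8, Hoxd8 and Hoxd10) all SC arrays lay above all macrophage arrays, and in 0 below, where 13.9% of all genes lay above and 15.6% below.

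In mutant nerve 4 genes were called, all higher in SCs: Hoxd10 (1.17, SE 0.30, adjusted p = 0.00585), Hoxc6 (1.15, SE 0.30, adjusted p = 0.00556), Hoxd8 (1.05, SE 0.19, adjusted p = 2.38e-04) and Hoxb6 (1.01, SE 0.33, adjusted p = 0.0272). That share, 11.1% of the Hox genes, compares with 7.22% of all genes called higher and 5.73% called lower. The median difference was 0.24, against -0.0024 over all genes, and 32 of 36 genes were above 0. In 4 genes (Hoxb3, Hoxc6, Hoxc10 and Hoxd8) all SC arrays lay above all macrophage arrays, and in 0 below, where 14% of all genes lay above and 13.5% below. Without SC array 10 a single call was left, Hoxc6, with Hoxd10 at 0.58 (adjusted p = 0.0707), Hoxd8 at 0.97 and Hoxb6 at 0.76. Without macrophage array 13 Hoxd8 and Hoxb6 were both at 0.94, under 2-fold, and without SC array 9 Hoxc6 was at 0.96. Hoxb6 was not called without SC array 9 (1.05) or macrophage arrays 11 (0.99) and 14 (0.90) either. The macrophage arrays of mutant nerve all carry batch 1 in their labels and SC arrays 8 and 9 batch 2. With the label batch as a term Hoxc6 was at 0.83 (adjusted p = 0.135) and Hoxb6 at 1.08 (adjusted p = 0.0886), while Hoxd8 and Hoxd10 were called at 1.23 and 1.78. Within batch 1, which leaves SC array 10 alone, Hoxb6 was at 1.50, Hoxc6 at 1.12, Hoxd8 at 1.21 and Hoxd10 at 2.34.

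In wild-type nerve Hoxc6 was 3.61-fold higher in SCs (1.85, SE 0.33, adjusted p = 2.28e-04) and Hoxb6 2.18-fold higher (1.13, SE 0.37, adjusted p = 0.0260), and these 2 were called, with 8.87% of all genes called higher and 4.99% lower. Hoxb6 was not called without SC array 2 (0.62) or macrophage arrays 4 (1.00) and 5 (1.14). With no minimum fold 10 were higher and 2 lower, where 15.5% and 14% of all genes were. The lower ones were Hoxa13 (-0.45, SE 0.14, adjusted p = 0.0185) and Hoxb13 (-0.43, SE 0.15, adjusted p = 0.0323), both terminal genes of their clusters. Hoxa13 had log2 values of 2.77, 2.59 and 3.00 in SCs, against 3.22, 3.32 and 3.16 in macrophages, and Hoxb13 had 2.71, 2.86 and 2.77 in SCs, against 3.30, 2.88 and 3.45 in macrophages. Neither pair of groups overlapped, but all these values lay below the array medians. Over all Hox genes 10 were higher on every SC array than on every macrophage array and 3 lower, where 18.7% and 19.9% of all genes were. Hoxb9, a thoracic gene, was among the 10 (0.61, SE 0.15, adjusted p = 0.00422), with 4.34, 4.16 and 4.30 in SCs and 3.51, 3.57 and 3.90 in macrophages. Of the wild-type arrays SC arrays 2 and 3 and macrophage arrays 5 and 6 are those with seminal vesicle genes. Without these and neurofibroma SC array 7m_4992, an alternative chosen after the values were seen, wild-type nerve kept 1 array of either cell type, which differed by 1.04 for Hoxb6 and by 1.46 for Hoxc6, with no spread of their own.

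Replicate SC sorts of 1 tissue differed from each other in single Hox genes or small runs of them. SC array 10 of mutant nerve had Hoxd9, Hoxd10 and Hoxd11 more than 2-fold above the mean of the other mutant SC arrays. Its log2 value was 3.98 for Hoxd9, against 2.34 and 3.12 on the others, 6.60 for Hoxd10, against 4.49 and 5.18, and 5.66 for Hoxd11, against 3.15 and 2.94. Such a deviation was seen in 3 of 36 Hox genes on that array and in 1.22% of all genes. The array also had the highest mean level of the neuron markers (5.36, against 4.19 and 4.91 on the other mutant SC arrays) and of the fibroblast markers (8.36, against 7.61 and 8.20), whose part in these values was not tested. Hoxd8 next to them differed little (6.00, against 5.86 and 5.65), as did Hoxd12 (3.28, against 3.25 and 3.10) and Hoxd13 (3.11, against 3.38 and 3.29). The same array had Hoxa5 at 2.74, more than 2-fold below the mean of the other mutant SC arrays (3.69 and 4.36). SC array 9 had Hoxa5 so far above its group mates and Hoxd11 so far below, as were 1.57% and 0.721% of all genes. SC array 8 had Hoxd9, Hoxd10 and Hoxd11 so far below, as were 2.25% of all genes. The means beside which arrays 8 and 9 were set include array 10, so these deviations are not separate from its own. Arrays 8 and 9 themselves were nearly level for Hoxd11, at 3.15 and 2.94. Wild-type SC array 2 had Hoxb2 and Hoxb6 at 5.02 and 5.46, more than 2-fold above the mean of the other wild-type SC arrays, as were 1.28% of all genes. Array 3 had Hoxc6 at 6.17, against 4.67 and 5.02, and 0.821% of all genes so far above. In neurofibroma array 7m_4992 had Hoxc4 at 4.06, with 1.78% of all genes so far above. These are the 3 SC arrays that hold seminal vesicle genes, with a mean log2 level of 8.66 on wild-type array 2, 4.29 on array 3 and 4.81 on 7m_4992, and the part of that tissue in their Hox values was not tested. SC arrays 9 and 10 of mutant nerve, which also had Hox genes so far above, were at 2.28 and 2.44 for the seminal vesicle genes. Array s4481 had a low Hoxc6 (2.77) and array 7m_4486 a low Hoxb6 (2.59), with 0.947% and 0.933% of all genes so far below. Among the 12 macrophage arrays 1 deviation of this size was found, that of Hoxc8 on wild-type array 4, at 2.12, against 3.47 and 2.86, where 1.61% of all genes lay so far below. The labels give no body level for any sort, so whether the tissue pieces differed in level was not tested.

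**Figure D3:**
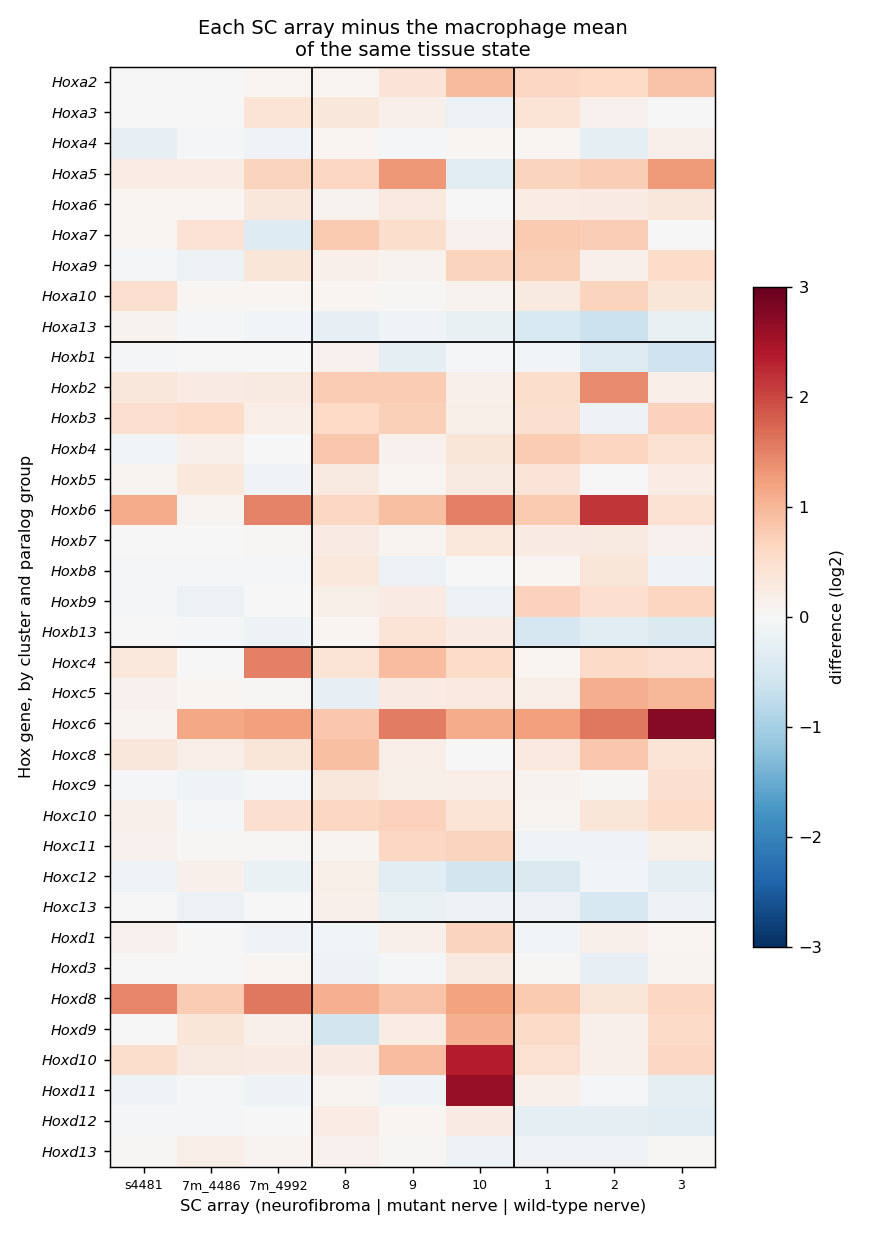
Each of the 9 SC arrays (columns, by tissue) minus the mean of the macrophage arrays of the same tissue, for the 36 Hox genes (rows, by cluster and paralog group), as a log2 difference in colour (red above 0, blue below). Hoxc6 is 0.81 to 2.74 above the macrophage mean on 8 of 9 arrays, Hoxd8 0.36 to 1.59 on all 9, and array 10 alone is more than 2-fold above it from Hoxd9 to Hoxd11.

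Between ages no Hox gene was called. In SCs, neurofibroma minus mutant nerve gave 0 of 36 calls by limma, where 0.23% of all genes were called, and neurofibroma minus wild-type nerve 0 of 36, where 0.311% were. In each, 5 Hox genes had an unadjusted p under 0.05, as had 8.76% of all genes against mutant nerve and 9.87% against wild-type nerve. In macrophages the counts were 0 and 0 as well, where 0.225% and 0.207% of all genes were called, with 6 and 9 Hox genes, and 8.37% and 9.9% of all genes, at an unadjusted p under 0.05. These fits subtract the difference of the control pair, which was -0.63 over all genes in the median and -0.79 over the Hox genes, from -1.76 for Hoxd13 to 0.30 for Hoxb4, and they carry the error of that pair. The 2 comparisons of a cell type share the neurofibroma arrays and both cell types share the control pair.

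Hoxc10, a lumbar gene, came nearest to a call. Its log2 values were 2.71, 2.52 and 3.04 in SCs of neurofibroma, against 4.64, 4.70 and 4.42 in SCs of mutant nerve and 4.16, 4.43 and 4.63 in SCs of wild-type nerve. The control RNA read 3.50 in the 7-month set and 3.78 in the 1-month set. After that difference the SCs of neurofibroma were at -1.55 from mutant nerve (SE 0.35, unadjusted p = 2.59e-04, adjusted p = 0.0788) and at -1.37 from wild-type nerve (SE 0.35, adjusted p = 0.103). Macrophages of neurofibroma, at 2.60, 2.54, 2.60 and 2.48, were at -1.18 from mutant nerve (adjusted p = 0.198) and at -1.24 from wild-type nerve (adjusted p = 0.170). Fibroblast markers lay lower by the same fit, with a median of -1.44 in SCs (11 of 14 below 0) and -1.38 in macrophages (13 of 14 below 0), as did neuron markers, with -0.48 and -0.37 (8 of 10 below 0 in each). None of these markers was called, and their part in the Hox values was not tested. Hoxa9, which acts at the thoracic and lumbar level and in blood progenitors, had 2.44, 2.29 and 2.84 in SCs of neurofibroma, against 4.25, 4.20 and 4.75 in SCs of mutant nerve, a fitted difference of -1.46 (SE 0.43, adjusted p = 0.197). Hoxd13, at the end of the Hoxd cluster, had a fitted difference of 1.14 (SE 0.38, adjusted p = 0.268) although its own values were lower in neurofibroma (mean 2.64, against 3.26 in mutant nerve), since the control pair differed by -1.76. The median fitted difference over the Hox genes was -0.25 in SCs, neurofibroma minus mutant nerve, and -0.02 in macrophages, with -0.04 over all genes in both.

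**Figure D4:**
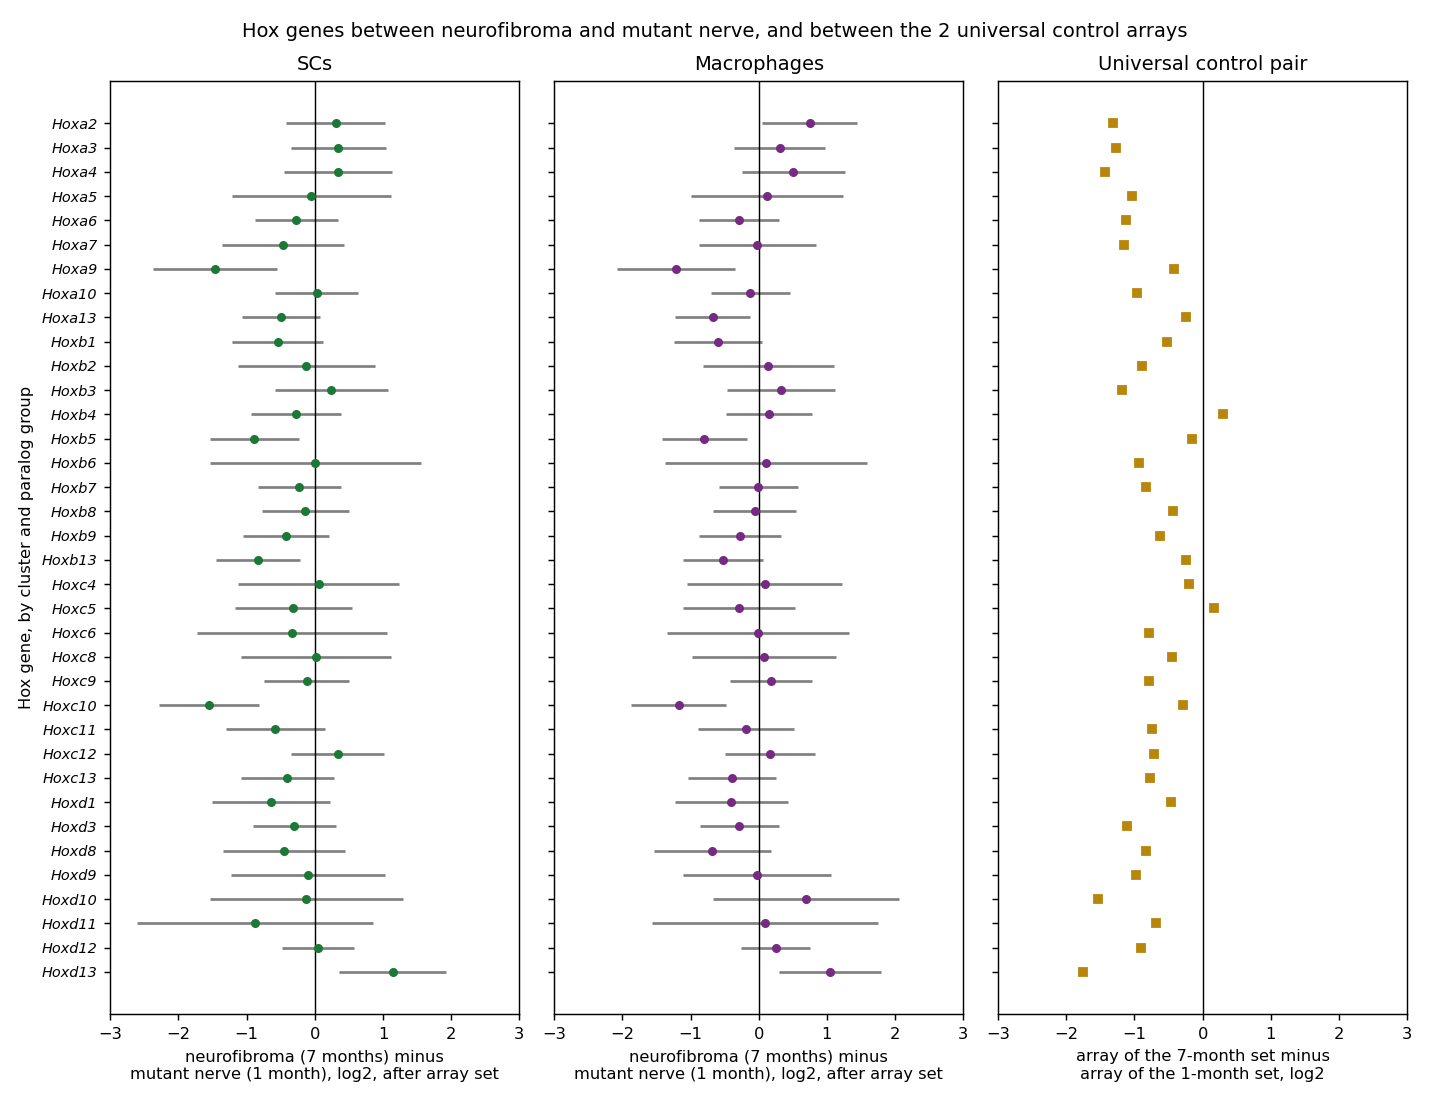
Fitted log2 difference, neurofibroma at 7 months minus mutant nerve at 1 month, of the 36 Hox genes in SCs (left) and macrophages (middle), with 95% confidence intervals, and the log2 difference between the 2 arrays of the control RNA, 7-month set minus 1-month set (right). The fitted differences of Hoxc10 and Hoxa9 lie below -1 and that of Hoxd13 above 1 in both cell types, and the control pair lies below 0 for all genes but Hoxb4 and Hoxc5.

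Between genotypes at 1 month no Hox gene was called. Mutant minus wild-type nerve gave 0 of 36 calls in SCs, where 0.00451% of all genes were called, and 0 of 36 in macrophages, where 0% were. By the same fit 3 and 4 Hox genes, and 8.66% and 12.4% of all genes, had an unadjusted p under 0.05. The median difference was -0.04 in SCs and -0.05 in macrophages. The smallest p-values in SCs were those of Hoxd10 (0.85, SE 0.34, adjusted p = 0.501), which rests on SC array 10 of mutant nerve, and Hoxb13 (0.34, SE 0.15, adjusted p = 0.528). In macrophages they were those of Hoxd12 (-0.33, SE 0.11, adjusted p = 0.257) and Hoxb13 (-0.32, SE 0.13, adjusted p = 0.328). Hoxd12 had 3.22, 3.03, 3.01, 2.91 and 3.01 in macrophages of mutant nerve, against 3.13, 3.50 and 3.47 in those of wild-type nerve. The macrophage arrays of these groups carry different batch labels, so genotype and label batch cannot be told apart there.

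The difference between SCs and macrophages was itself compared between tissues. For neurofibroma against mutant nerve 0 of 36 Hox genes were called, where 1.67% of all genes were, and for neurofibroma against wild-type nerve 0 of 36, where 3.08% were. By limma 0 and 7 Hox genes had an unadjusted p under 0.05, and so had 13.7% and 18.5% of all genes. The median change of that difference over the Hox genes was -0.12 and -0.11, with 28 and 24 of 36 below 0, and over all genes -0.014 and 0.018. In neurofibroma 22 of 36 Hox genes in SCs and 29 in macrophages were above the array median on no array. Those numbers were 15 and 20 in mutant nerve and 18 and 24 in wild-type nerve. An array set cancels in this contrast only where it shifts SCs and macrophages alike. Whether low values in the 7-month set narrowed the difference was not tested. Hoxb9 came nearest (-0.67, SE 0.21, adjusted p = 0.0728, against wild-type nerve), followed by Hoxa2 (-0.67, SE 0.24, adjusted p = 0.124) and Hoxb4 (-0.61, SE 0.22, adjusted p = 0.126). Hoxd8 lay on the other side (0.69, SE 0.29, adjusted p = 0.208). Hoxb4, a gene of the neck and of blood stem cells, had 4.11, 4.35 and 4.19 in SCs and 4.19, 4.19, 4.19 and 4.24 in macrophages of neurofibroma, so that 4 of these 7 arrays shared 1 value. Its values in wild-type nerve were 4.46, 4.35 and 4.16 in SCs, against 3.80, 3.87 and 3.44 in macrophages. The spread of such a group is that of a few arrays at most.

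Other genes of the Hox system were read from lists. Of the TALE cofactors, the partners with which Hox proteins bind DNA, 0 of 8 were called in the mean over tissues, with 3 higher (Pknox2 0.70, Meis2 0.43 and Pbx3 0.38) and 1 lower (Pbx2 -0.58) with no minimum fold, where 20.6% of all genes were higher and 19.6% lower. Pknox2 was called higher in SCs of mutant nerve (1.06, adjusted p = 0.00151) and Pbx2 lower in SCs of neurofibroma (-1.25, adjusted p = 0.00442). Of the Polycomb repressors, which keep Hox genes silent, 0 of 25 were called. With no minimum fold 7 (28%) were lower and 5 (20%) higher in SCs, shares near those of all genes. Among the lower ones were Suz12 (-0.91, adjusted p = 6.51e-08) and its partner Eed (-0.55, adjusted p = 2.14e-04), and among the higher ones Pcgf2 (0.72, adjusted p = 0.00566) and Ezh2 (0.45, adjusted p = 0.00202). Of the Trithorax and demethylase activators, which oppose them, 1 of 13 was called, Psip1 (1.03, adjusted p = 1.71e-08). The medians of these lists were 0.07, -0.04 and 0.08, against -0.04 over all genes.

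Retinoic acid and Gdf11 are signals that switch on Hox genes in the embryo. Of 18 genes of these pathways 5 were called higher in SCs and 2 lower, where 7.17% of all genes were called higher and 5.25% lower. The retinoic acid binding proteins Crabp2 (3.15, adjusted p = 4.35e-10) and Crabp1 (2.18, adjusted p = 1.42e-07) were higher, as were Aldh1a1, which makes retinoic acid (2.11, adjusted p = 6.45e-08), the retinol transporter Stra6 (1.38, adjusted p = 3.65e-07) and the receptor Rarb (1.20, adjusted p = 1.19e-06). The Gdf11 receptor Tgfbr1 (-1.19, adjusted p = 6.04e-08) and Aldh1a2 (-1.01, adjusted p = 0.00252) were lower, so that Aldh1a1 and Aldh1a2 went opposite ways. Fibroblast markers moved with these genes, and their part was not tested. The list's median was 0.10. The SC excess of Rarb was called smaller in neurofibroma than in wild-type nerve (-1.41, adjusted p = 0.0412).

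Of 6 noncoding genes of the Hox clusters 0 were called in the mean over tissues. Mir10b, whose mature product is printed above, was at 0.49 (SE 0.16, adjusted p = 0.0162). Mir196a-2, beside the Hoxc genes, was called higher in SCs of mutant nerve, with a mean of 4.60 in SCs and 3.49 in macrophages (1.11, adjusted p = 0.00560), but lay at -0.19 (adjusted p = 0.707) in wild-type nerve. Mir196a-1, the copy in the Hoxb cluster, was at 0.12 (adjusted p = 0.511) and Hotair at -0.12 (adjusted p = 0.350). Of 9 ParaHox and flanking homeobox genes 0 were called, and their median was -0.18.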

How the data were processed

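RNA of FACS sorted cells (21 arrays) and of a batch control (2 arrays) was hybridised to Mouse Gene 2.0 ST arrays, 23 in all. The values are log2 intensities that the authors made with RMA in Affymetrix Expression Console 1.3.1.187 (mm10) and deposited for 41345 transcript clusters. The study names ComBat for 2 batches, yet the deposited log2 values lie on 2 levels that follow age and not the batch in the titles, and these levels were taken as the array set. Of the clusters, 23521 carry 1 gene, 1820 several and 16004 none. The cluster with the highest mean was kept for each of 22180 genes. Names were updated through RefSeq (GRCm38.p6) for 21994 genes.

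limma 3.58.1 in R 4.3.3 was fitted to all arrays, with 7 groups and the array set as terms (15 residual degrees of freedom, 19.77 with the moderated variance), and p-values were adjusted by Benjamini-Hochberg. Calls needed an adjusted p under 0.05 and more than 2-fold. Per-array values were given for the 3 genes of each cluster with the largest SC to macrophage difference and, in full or in part, for genes nearest to a call elsewhere. The Hox genes and all lists were chosen with earlier results of these data known. The fit was checked on simulated data. Figures were drawn with matplotlib 3.10.9. Alternatives were other normalizations, filters, batch terms and left-out arrays.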

Additional observations from a re-analysis of the deposited data

Results flagged for a closer look

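In each macrophage group of 4 or 5 arrays the array farthest from the rest was examined for every Hox gene. Of 72 such tests 13 passed the 95% limit of Dixon's test. Chance gives about 1 in 20 groups only where values are not tied, and no share over all genes is given, so the count is not read as an excess. In mutant nerve Hoxa2 stood high on macrophage array 11 (3.24, against 2.81 to 2.93 on the others) and Hoxa5 on array 14 (3.43, against 2.92 to 3.02). The other 11 were in neurofibroma, where the remaining arrays often shared nearly 1 value, so that even a small gap passes the test and that rate does not apply. On array s4481 Hoxa3 was at 2.27 (others 2.35), Hoxb13 at 2.07 (others 2.12 to 2.13), Hoxc12 at 2.47 (others 2.40) and Hoxd10 at 3.14 (others 3.51 to 3.53). On array s4441 Hoxa9 was at 2.46 (others 2.47), Hoxb5 at 3.25 (others 3.39), Hoxc11 at 2.10 (others 2.23) and Hoxd1 at 2.30 (others 2.48 to 2.50). On array s4448 Hoxd11 was at 2.71 (others 2.37 to 2.38) and Hoxd12 at 2.60 (others 2.27 to 2.32), and on array 7m_4486 Hoxb4 was at 4.24 (others 4.19).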

How the results depend on the processing

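Numbers here are Hox genes called. For SC minus macrophage over the 3 tissues (2 as reported), 1 was called after quantile normalization, with array weights and without the arrays that hold seminal vesicle genes (chosen after seeing the data), each time Hoxc6, and 16 with no fold minimum (40.2% of all genes). In mutant nerve (4) there were 9 with no fold minimum (27.4% of all genes). In wild-type nerve (2) there were 12 with no fold minimum (29.5% of all genes), 1 in a fit of the 2 groups alone (Hoxc6) and 1 without the seminal vesicle arrays, a fit with 1 array of either cell type there, assumed to vary like the other groups. For neurofibroma minus mutant nerve in SCs (0) there were 3 after ComBat (Hoxa9 and Hoxc10 lower, Hoxd13 higher), 1 after centring (Hoxa9 lower) and 1 without the seminal vesicle arrays (Hoxc10 lower), and for neurofibroma minus wild-type nerve in SCs (0) 3 after ComBat. In macrophages, neurofibroma minus mutant nerve (0) gave 2 after ComBat (Hoxa9 and Hoxc10 lower) and 1 after centring (Hoxb4 higher), and neurofibroma minus wild-type nerve (0) gave 2 after ComBat (Hoxc10 and Hoxd8 lower) and 3 after centring (Hoxb4 and Hoxc5 higher, Hoxd8 lower). With the label batch as a term the SC to macrophage difference gave 1 between neurofibroma and mutant nerve (0 as reported; Hoxd11 lower). In the age comparisons ComBat called 4.97% to 6.47% of all genes and centring 4.48% to 6.72%, against 8.33% of the Hox genes where 3 were called. ComBat and centring leave the error of the control pair out of the fit. The other causes were not tested.

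Leaving out 1 array at a time gave 1 to 3 calls over the 3 tissues, 1 to 2 in neurofibroma, 1 to 5 in mutant nerve, 1 to 3 in wild-type nerve, and 0 to 1 for neurofibroma minus mutant nerve in SCs (Hoxc10 without SC array 7m_4992), and 0 to 0 in the remaining comparisons. Labels s4481 and 7m_4486 occur in both cell types and were taken as 1 mouse each, which the labels do not state. With that number as a replicate block (correlation 0.0983) the numbers were 2, 1, 4 and 2 in the SC to macrophage comparisons. They were 0 between tissues, so that the block changed no call. No called Hox gene changed direction, while Hoxb5, not called, went to the other side of 0 between neurofibroma and mutant nerve with its other transcript cluster (0.07 in SCs and 0.12 in macrophages, against -0.89 and -0.80). Array weights were not run between ages, and no control array could be left out.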
